A study of Arabidopsis thaliana with 6 samples.

Results

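HRA1 (HYPOXIA RESPONSE ATTENUATOR1, AT3G10040) and 9 further loci of the core low-oxygen response of Arabidopsis thaliana were followed in rosettes kept in air, in plants that overexpress a plant cysteine oxidase and in wild type. The 10 genes were taken from a given list of loci, each through a probe set that the array's annotation pairs with exactly 1 gene. All 10 were found, each with 1 such probe set, among 13333 loci that had a probe set of their own. The list was proposed when earlier results of these data were known, so the number of its genes that differ is a description of these genes and not independent evidence about the response.

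Of the 6 arrays, 3 carried RNA of 35S:PCO1 plants, in which the 35S promoter of a plant virus, active in nearly all tissues, drives PLANT CYSTEINE OXIDASE 1 (PCO1), and the other 3 carried RNA of wild-type plants. The titles of the overexpressor samples name CDO1, while genotype and description name PCO1. Both groups were whole rosettes in normoxia under 8 h of light at 22 °C and 16 h of darkness at 18 °C, taken 2 h after the lights came on. Their age is 4 weeks in the sample characteristics and 5 weeks in the RNA protocol. The labels name neither an accession nor the number of transgenic lines, and do not say whether a replicate was 1 plant or a pool, so each p-value reflects only how far these samples varied, in part perhaps for technical reasons. PCO1 itself had no probe set named in the annotation used here, so overexpression was not checked against the labels.

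In Arabidopsis, low oxygen is sensed through the group VII ethylene response factors (ERF-VII), transcription factors such as RAP2.12 whose N-terminal cysteine is oxidised by plant cysteine oxidases when oxygen is present. Oxidation marks them for degradation by the N-degron pathway. When oxygen falls they persist, reach the nucleus and switch on a set of core hypoxia genes found in many tissues. HRA1, a trihelix DNA-binding protein, is itself switched on by RAP2.12 and holds RAP2.12 back, so it closes a negative feedback loop.

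The arrays were alike in scale, with medians of 6.11 to 6.15 on the log2 scale over 22746 probe sets. Correlations across probe sets were 0.996 to 0.999 within groups and 0.995 to 0.997 between groups, so genotype did not set the arrays cleanly apart. A gene is called measured here if the annotation pairs a probe set with it alone. That annotation names no gene for 8730 probe sets, so a gene not measured may still be on the array. Of the leaf genes written as a tissue check, 2 of 12 were measured. The RuBisCO activase gene RCA lay at 13.51 to 13.55 in 35S:PCO1 and 13.44 to 13.53 in wild type, and the light-harvesting gene LHCB4.1 at 13.40 to 13.48 in 35S:PCO1 and 13.43 to 13.51 in wild type. Of the root genes, 3 of 10 were measured, and their summed linear signal was 299.6 to 322 in 35S:PCO1 and 310.1 to 428 in wild type. No flower or seed gene was measured. The rosettes were bulk tissue, in which fewer cells of a type and less RNA per cell cannot be told apart.

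In 35S:PCO1 rosettes 9 of the 10 genes had a lower mean signal, where 48.4% of all probe sets did, and 1, AT1G05575, a higher one. The gap was small for most: 8 of the 10 differed by less than 1.5-fold. AT1G19530 was 3.26-fold lower as measured, with a limma interval of 1.92-fold to 5.53-fold. Its 35S:PCO1 arrays lay inside 3.07 to 3.82, the range of 12 bacterial control probe sets (genes dap and lys) taken as a signal floor. With the top of that range in their place it was 2.84-fold lower. That value allows for the floor only and not for the spread of the arrays, so it is no firm minimum. AT4G27450 was 1.52-fold lower, AT5G47060 was 1.32-fold lower and HRA1 was 1.19-fold lower. None passed limma's test at an adjusted p of 0.05, in which p-values were adjusted over all probe sets by the Benjamini-Hochberg method. The adjusted p ran from 0.0604 to 0.273, against a background in which 0.840% of probe sets passed in either direction and 0.633% passed as lower. At an unadjusted p under 0.05 all 10 passed, where 13.4% of probe sets did (9 lower, where 7.49% did, and 1 higher, where 5.89% did). With an ordinary t statistic 0 genes and 0 of all probe sets passed after adjustment, and 7 genes had an unadjusted p under 0.05, where 10.9% of all probe sets did.

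**Figure D1:**
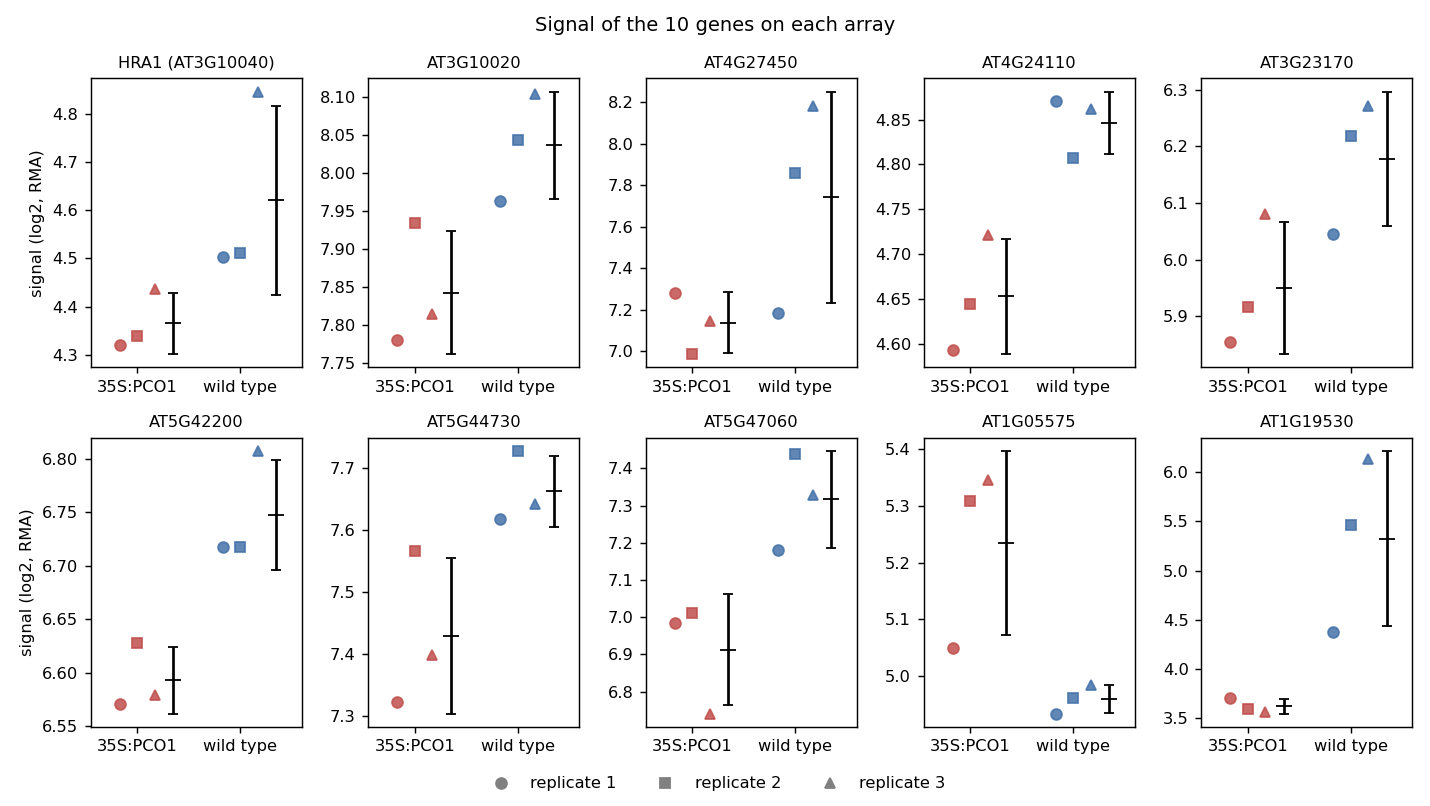
Signal (log2, vertical axis, a scale of its own for each gene) of the 10 genes on 3 arrays of 35S:PCO1 (red) and 3 of wild type (blue). Marker shapes stand for replicate numbers and black bars for the mean ± SD. In 8 of the 10 panels the groups do not overlap, and AT1G05575 is the only panel with 35S:PCO1 above wild type.

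For 8 of the 10 genes the arrays of the 2 groups did not overlap. In 7 of them all 35S:PCO1 arrays were below all wild-type arrays, and in 1 all were above. Over all probe sets 18.4% had groups that did not overlap, 9.31% with 35S:PCO1 below and 9.07% with 35S:PCO1 above. The median difference of the 10 genes was -0.23 on the log2 scale, and that of all tested probe sets was 0.0036. For 3 of the 10 (HRA1, AT4G27450 and AT1G19530) the range of the wild-type arrays was wider than the difference between groups, which was the case for 79.2% of all probe sets.

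HRA1 comes first among the regulators. Its signal was 4.32, 4.34 and 4.44 in 35S:PCO1 replicates 1 to 3, against 4.50, 4.51 and 4.85 in wild-type replicates 1 to 3 (log2). All 35S:PCO1 arrays lay below all wild-type arrays, but the gap between the nearest arrays was 0.067, and wild-type replicate 3 stood well above the other two. The means were 4.36 ± 0.06 in 35S:PCO1 and 4.62 ± 0.20 in wild type (SD, n = 3 each). The difference of -0.26 (SE 0.09, 95% interval -0.46 to -0.05) had a limma adjusted p of 0.273. An exact two-sided permutation test gave p = 0.1, the smallest that 3 arrays against 3 can give. Without wild-type replicate 3 the difference was -0.14 (adjusted p = 0.363). All 6 values lay above the dap and lys range.

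AT5G42200 encodes a RING finger protein, of the class that often acts as ubiquitin ligase. Its signal was 6.57, 6.63 and 6.58 in 35S:PCO1, against 6.72, 6.72 and 6.81 in wild type. The groups did not overlap and each was tight, yet the difference was only -0.15 (SE 0.05, 95% interval -0.28 to -0.03, adjusted p = 0.262 by limma). It was the smallest in size of the 10.

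AT5G47060 encodes an FCS-like zinc finger protein, a plant family whose members bind the energy-sensing kinase SnRK1. The values were 6.99, 7.01 and 6.74 in 35S:PCO1, against 7.18, 7.44 and 7.33 in wild type. With a gap of 0.17 between the nearest arrays, no array of one group reached the other. The difference of -0.40 (SE 0.09, 95% interval -0.60 to -0.20) had an adjusted p of 0.0836 by limma, the second lowest of the 10. Without wild-type replicate 1 it was -0.47 with an adjusted p of 0.0290.

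AT5G44730 encodes a hydrolase-like protein of the haloacid dehalogenase superfamily. It was measured at 7.32, 7.57 and 7.40 in 35S:PCO1, against 7.62, 7.73 and 7.64 in wild type. The groups did not overlap, although 35S:PCO1 replicate 2 came within 0.05 of the lowest wild-type array. The difference was -0.23 (SE 0.07, 95% interval -0.39 to -0.07, limma adjusted p = 0.204).

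AT4G27450 belongs to the aluminium-induced protein family with YGL and LRDR motifs. It showed 7.28, 6.99 and 7.14 in 35S:PCO1, against 7.18, 7.86 and 8.18 in wild type. The groups overlapped, because wild-type replicate 1 sat among the 35S:PCO1 arrays, 0.05 above their mean, while wild-type replicates 2 and 3 were 0.72 and 1.04 above it. The difference of -0.60 (SE 0.21, 95% interval -1.07 to -0.14) had a limma adjusted p of 0.250. It was -0.88 without wild-type replicate 1 (adjusted p = 0.00386) and -0.38 without wild-type replicate 3 (adjusted p = 0.368). Its size thus hung on both arrays, while only leaving out wild-type replicate 1 changed its call.

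The remaining 5 loci are listed without a described role. Among them AT1G19530 had the largest measured difference of the 10, also with its 35S:PCO1 arrays set to the floor. Its signal was 3.70, 3.59 and 3.57 in 35S:PCO1, against 4.37, 5.47 and 6.13 in wild type. The 35S:PCO1 arrays agreed within 0.13 and lay inside the dap and lys range, whereas the wild-type arrays were spread over 1.76, more than the difference of -1.70 (SE 0.34, 95% interval -2.47 to -0.94). The limma adjusted p was 0.0604. It was 2.32e-04 without wild-type replicate 1 and 0.259 with a trended robust prior.

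AT3G10020 was at 7.78, 7.93 and 7.81 in 35S:PCO1, against 7.96, 8.04 and 8.10 in wild type. The groups were separated by only 0.03, and the difference was -0.19 (SE 0.06, limma adjusted p = 0.231). On chromosome 3 this locus is a near neighbour of HRA1, with AT3G10030 and AT3G10035 between them in the RefSeq gene table. AT3G10030, itself a trihelix-type gene, was measured at 6.54, 6.44 and 6.55 in 35S:PCO1 and 6.46, 6.37 and 6.52 in wild type. Its difference of 0.06 (SE 0.06, adjusted p = 0.732 by limma) was about as large as its SE. Whether it differed from the loci on either side was not tested.

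AT4G24110 was at 4.59, 4.64 and 4.72 in 35S:PCO1, against 4.87, 4.81 and 4.86 in wild type. The groups did not overlap and the wild-type arrays were close together, with an SD of 0.03. The difference was -0.19 (SE 0.06, limma adjusted p = 0.180). AT3G23170 was at 5.85, 5.92 and 6.08 in 35S:PCO1, against 6.05, 6.22 and 6.27 in wild type. Here 35S:PCO1 replicate 3 reached above wild-type replicate 1, so the groups overlapped, and the difference was -0.23 (SE 0.08, limma adjusted p = 0.262).

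AT1G05575 stood opposite to the other 9. Its signal was 5.05, 5.31 and 5.35 in 35S:PCO1, against 4.93, 4.96 and 4.98 in wild type. All 35S:PCO1 arrays were above all wild-type arrays, and the spread was on the 35S:PCO1 side, with an SD of 0.16 in 35S:PCO1 and 0.03 in wild type. The difference was 0.27 (SE 0.08, 95% interval 0.10 to 0.45, limma adjusted p = 0.177).

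**Figure D2:**
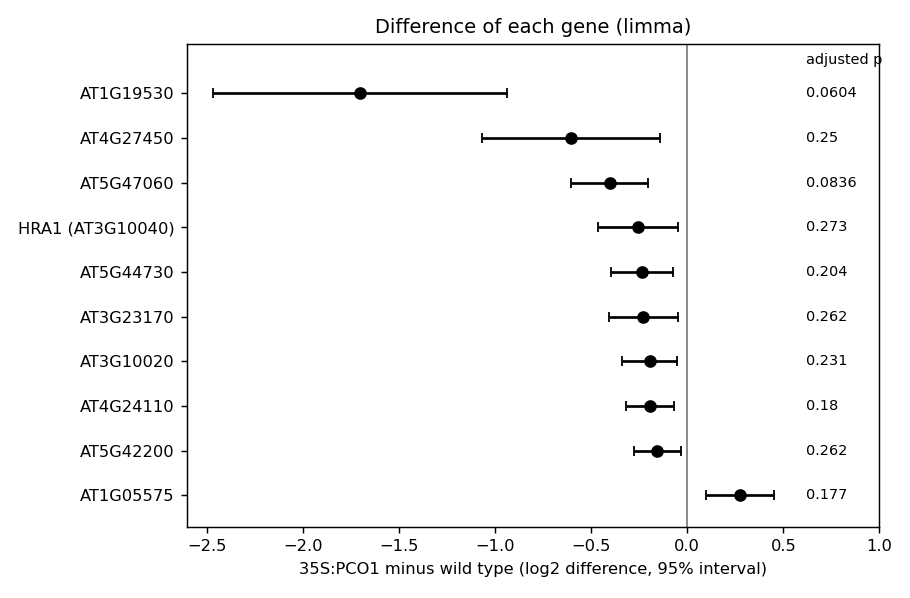
Difference of each gene, 35S:PCO1 minus wild type (horizontal axis, log2), with its 95% interval from limma and its adjusted p at the right. Of the 10 intervals 9 lie below 0 and that of AT1G05575 above it, while no adjusted p is under 0.05.

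The order of the wild-type arrays was alike in many of these genes, though their range ran from 0.05 (AT1G05575) to 1.76 (AT1G19530). Wild-type replicate 1 was the lowest wild-type array for 8 of the 10 genes and replicate 3 the highest for 7, where the shares over all probe sets were 40.2% and 44.0%. Both held at once for 6 genes (HRA1, AT3G10020, AT4G27450, AT3G23170, AT1G05575 and AT1G19530), and the reverse for 0. Over all probe sets 27.3% had replicate 1 lowest with replicate 3 highest and 19.8% had the reverse, and among the 1704 probe sets lower in 35S:PCO1 at an unadjusted p under 0.05 the first share was 40.8%. AT1G05575 had this order of wild-type arrays too, although it was higher in 35S:PCO1. AT5G44730 and AT5G47060 were highest in replicate 2, and AT4G24110 in replicate 1.

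Wild-type replicate 1 was the wild-type array nearest to the 35S:PCO1 mean for 7 of the 10 genes. For each gene lower in 35S:PCO1 the nearest wild-type array was the lowest, so this count restates the order above. Over all probe sets, lower and higher alike, it was nearest for 36.0%, which is not a like background. With each gene centred on its own 6-array mean, the 10 genes averaged -0.21, -0.17 and -0.18 in 35S:PCO1 replicates 1 to 3, against -0.02, 0.22 and 0.36 in wild-type replicates 1 to 3 (log2). The 35S:PCO1 arrays thus lay within a narrow band (-0.18 ± 0.02, SD, n = 3) and the wild-type arrays over a wide one (0.18 ± 0.19, SD, n = 3). Without AT1G19530, which carries much of this mean, the values were -0.15, -0.09 and -0.09 in 35S:PCO1, against -0.01, 0.13 and 0.21 in wild type. In both forms all 35S:PCO1 arrays were below all wild-type arrays, and wild-type replicate 1 was nearest to them. Gene by gene the wild-type SD was the larger for 5 of the 10, where it was the larger for 56.8% of all probe sets.

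**Figure D3:**
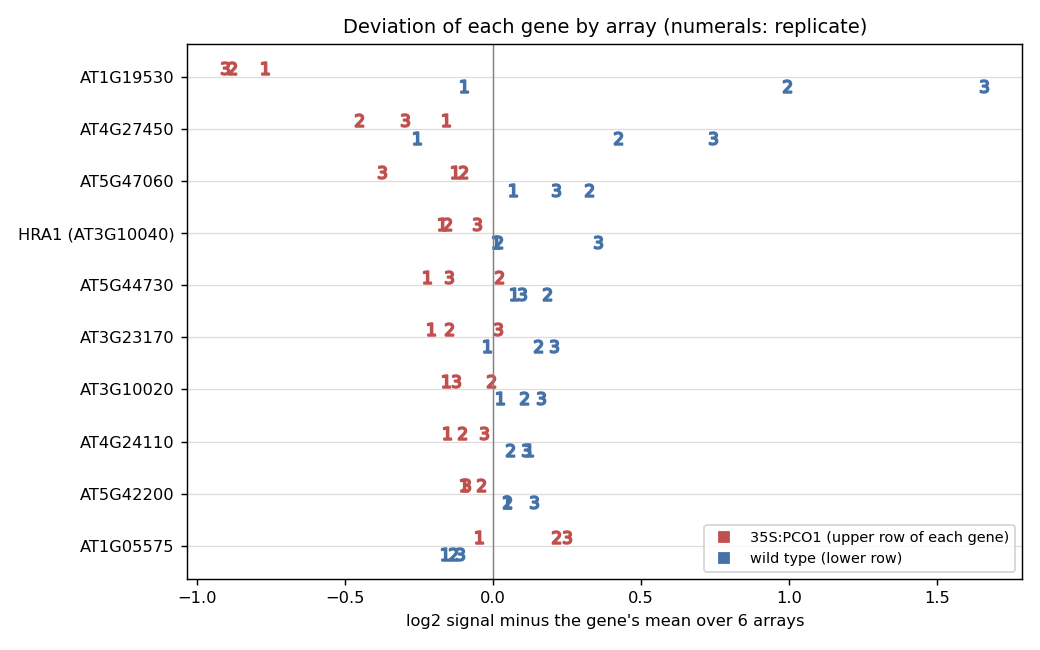
Deviation of each gene from its own mean over the 6 arrays (horizontal axis, log2), with numerals for the replicate, in 35S:PCO1 (red, upper row) and wild type (blue, lower row). AT1G19530 and AT4G27450 spread widely over the wild-type arrays, with replicate 1 lowest and replicate 3 highest, and AT1G05575 has the groups the other way round.

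Other measures also differed between these arrays. The control probe set for 25S ribosomal RNA was at 7.39, 7.54 and 7.30 in 35S:PCO1, against 8.88, 8.66 and 8.48 in wild type. That difference was -1.26 (SE 0.10, limma adjusted p = 1.81e-04, fitted and adjusted over the 64 control probe sets). Its highest wild-type array was replicate 1, the lowest wild-type array for most of the 10 genes. The root-expressed beta-glucosidase gene PYK10 was at 7.55, 7.74 and 7.60 in 35S:PCO1, against 8.38, 8.19 and 7.68 in wild type, also with replicate 1 the highest. Its difference of -0.45 (SE 0.15) had a limma adjusted p of 0.233. The other root genes measured, EXPA7 (an expansin of root hairs) and AT3G54580, differed by 0.19 (SE 0.07) and by 0.13 (SE 0.10), with limma adjusted p-values of 0.257 and 0.637. All 3 root genes were above the dap and lys range on each array. Their part, and that of the 25S ribosomal RNA, in the differences of the 10 genes was not tested.

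Only 1 array, wild-type replicate 1, changed a call among the 10 genes when it was left out. Leaving out wild-type replicate 1 let 3 pass (AT4G27450, AT5G47060 and AT1G19530, all lower), where 2.15% of all probe sets passed. Leaving out any of the other 5 arrays let 0 pass by limma, where 5 to 149 of all 22746 probe sets passed. In these fits 6 to 9 of the 10 had an unadjusted p under 0.05, where 8.55% to 13.5% of all probe sets did. Weighting the arrays by their fit (4.55 for wild-type replicate 2, from 0.434 to 1.42 for each other array) let 7 pass, where 9.74% of all probe sets passed: AT3G10020, AT4G27450, AT3G23170, AT5G44730, AT5G47060 and AT1G19530 as lower and AT1G05575 as higher. HRA1, AT4G24110 and AT5G42200 passed under none of the alternatives run. The direction of the 10 differences was the same in every setting run, each of which shares most of its arrays with the others.

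**Figure D4:**
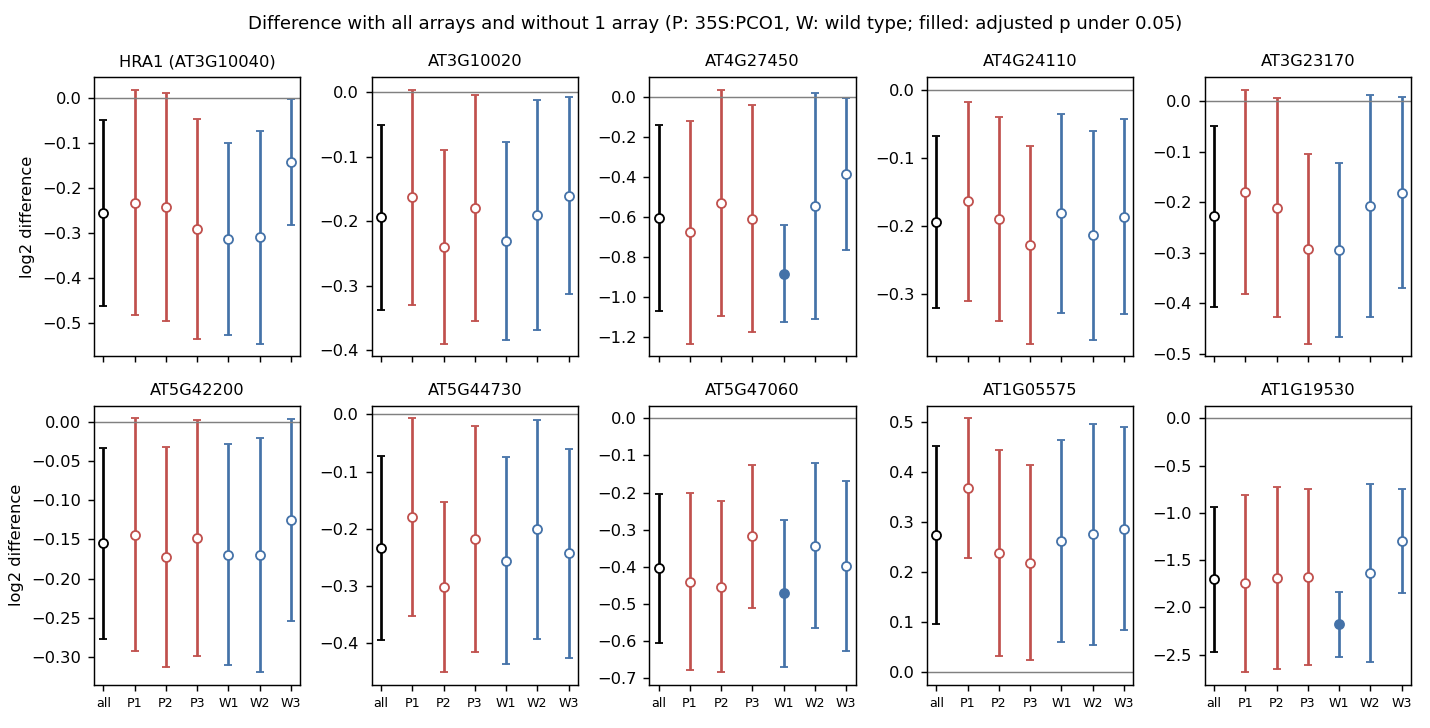
Difference of each gene (vertical axis, log2, 35S:PCO1 minus wild type, with 95% intervals) with all arrays (black), without 1 array of 35S:PCO1 (P1 to P3, red) and without 1 array of wild type (W1 to W3, blue). Filled points, which have an adjusted p under 0.05, appear only without wild-type replicate 1, for AT4G27450, AT5G47060 and AT1G19530.

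The rest of the core hypoxia response was read from 45 further loci written for that list, of which 19 were measured. Adjusted over all probe sets, 2 of the 19 fell, where 0.633% of all probe sets passed as lower. None rose, and 17 missed the threshold. At an unadjusted p under 0.05, 4 of the 19 were lower, where 7.49% of all probe sets were, and these include the 2 that fell. AT3G27220, a Kelch repeat gene, was at 4.50, 4.54 and 4.45 in 35S:PCO1, against 5.02, 5.10 and 5.37 in wild type, and fell by 0.67 (SE 0.09, limma adjusted p = 0.0146). AT4G10270, a gene of a family responding to wounding, was at 5.01, 4.95 and 4.64 in 35S:PCO1, against 5.46, 5.93 and 6.18 in wild type, and fell by 0.99 (SE 0.16, limma adjusted p = 0.0330). Neither pair of groups overlapped, and wild-type replicate 1 was again the lowest wild-type array for both genes. Neither was called without 35S:PCO1 replicate 1, 35S:PCO1 replicate 3 or wild-type replicate 2, where 5 of all 22746 probe sets passed in each fit. Only AT3G27220 was called without 35S:PCO1 replicate 2, where 105 of all probe sets passed. With all arrays 191 of them passed, so most called probe sets were also lost in the fits where 5 passed.

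Next by p in that list were AT3G03270, of the universal stress protein family, with a difference of -0.55 (SE 0.12, adjusted p = 0.0752 by limma), and AT1G72940, a TIR domain gene, with -0.20 (SE 0.06, adjusted p = 0.186). Without wild-type replicate 1, AT3G03270 passed as well, so that 3 of the 19 did, where 2.15% of all probe sets passed. The median difference of the 19 was -0.09, against -0.23 for the 10 genes and 0.0036 over all probe sets. Among the 19, AT5G10040 and AT5G66985 lay inside the dap and lys range on every array, and AT4G39675 on all but wild-type replicate 3 (3.87). A fall could hardly show in these genes, which limits the comparison of the medians. Of the 19, 16 lay below 0 and 3 above, where 48.4% of all probe sets lay below 0. For 5 of them the 35S:PCO1 arrays were all below the wild-type arrays, where 9.31% of all probe sets were so. Wild-type replicate 1 was the lowest wild-type array for 12 of the 19, where it was for 40.2% of all probe sets.

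Genes upstream and downstream were thinly covered by the named probe sets. Of 10 fermentation genes 3 were measured: the lactate dehydrogenase gene AT4G17260 differed by -0.11 (SE 0.06), the pyruvate decarboxylase gene PDC2 by -0.09 (SE 0.07) and the dikinase gene PPDK by 0.04 (SE 0.09), and none passed. Of 16 genes of the ERF-VII factors and the N-degron pathway 3 were measured, all acting in N-terminal processing. The amidase genes AT2G44420 and AT2G41760 differed by -0.12 (SE 0.07) and -0.06 (SE 0.06) and the methionine aminopeptidase gene MAP1A by -0.02 (SE 0.05), and again none passed. No ERF-VII gene had a probe set of its own in the annotation used, so the factors that act on HRA1 and the other core genes were not analysed here.

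The families of HRA1 and AT5G47060 were set beside them. Of 27 other trihelix genes 18 were measured, and none passed. AT3G54390 differed by -0.37 (SE 0.08, limma adjusted p = 0.0631), PTL (PETAL LOSS, which restrains growth between sepals) by -0.50 (SE 0.14, adjusted p = 0.149), AT3G24490 by -0.25 (SE 0.09, adjusted p = 0.265) and AT4G31270 by -0.14 (SE 0.07, adjusted p = 0.461). The first 3 had all 35S:PCO1 arrays below all wild-type arrays, and the family's median was -0.04, so HRA1, at -0.26, was not the trihelix gene with the largest difference. Of 14 other FCS-like zinc finger genes 10 were measured, and none passed. AT1G22160 differed by 0.16 (SE 0.05, adjusted p = 0.237), AT5G20700 by -0.15 (SE 0.05, adjusted p = 0.262), AT5G49120 by -0.18 (SE 0.08, adjusted p = 0.387) and AT3G22550 by -0.07 (SE 0.05, adjusted p = 0.633). Their median was 0.01, and the difference of AT5G47060, at -0.40, was larger in size than each of the 10. AT4G17670 and AT1G74940 stand in both this family and the core hypoxia list, with differences of -0.06 (SE 0.09) and 0.0024 (SE 0.06).

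**Figure D5:**
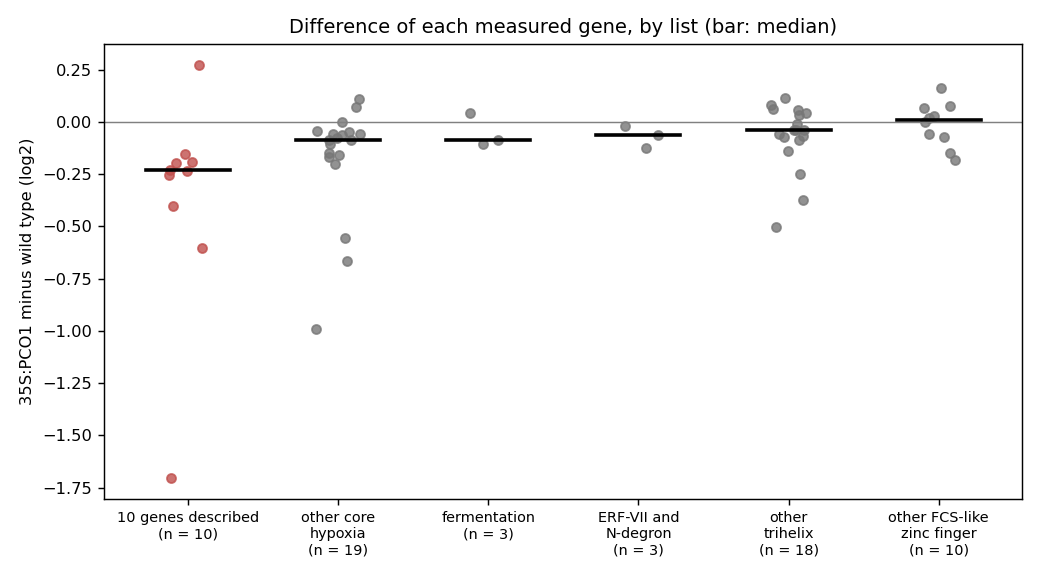
Difference of each measured gene, 35S:PCO1 minus wild type (vertical axis, log2), for the 10 genes described (red) and 5 lists (grey), with a bar at the median. The medians are -0.23 for the 10 genes, -0.09 for the 19 other core hypoxia genes, -0.04 for the trihelix and 0.01 for the FCS-like zinc finger genes. Of the 18 trihelix genes 12 lie below 0, PTL the lowest at -0.50, and 6 above. PDC2 appears in 2 of the lists, as do AT4G17670 and AT1G74940.

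Likeness to HRA1 over the 6 arrays was described by Pearson's r, among 410 probe sets with 1 named gene and an SD of at least 0.2. These 6 points share the split between genotypes and the spread of wild type. The 5 with the highest r were AT1G43910 (0.985), AT1G80520 (0.976), AT5G48800 (0.963), the serine carboxypeptidase-like gene scpl31 (0.963) and AT4G23720 (0.958). In all 5 wild-type replicate 3 was the highest of the 6 arrays and 35S:PCO1 replicate 3 the highest of its group, as in HRA1. Their choice by r over these same arrays favours such a likeness. AT1G43910, the nearest, was at 4.83, 4.83 and 4.92 in 35S:PCO1, against 5.13, 5.04 and 5.50 in wild type. Its difference was -0.37 (SE 0.11, limma adjusted p = 0.177). None of the 5 passed, and for 4 of them the groups overlapped. Within the 10 genes, r with HRA1 was 0.887 for AT1G19530, 0.885 for AT5G42200, 0.862 for AT3G23170 and 0.846 for AT4G27450. It was 0.794 for AT3G10020 and 0.787 for AT4G24110, lower for AT5G47060 (0.583) and AT5G44730 (0.554), and -0.472 for AT1G05575.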

How the data were processed

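Total RNA of whole rosettes (3 samples of 35S:PCO1, 3 of wild type) was hybridised to Affymetrix Arabidopsis GeneChip arrays. The values the authors deposited are log2 signals from RMA (no version given), per the submitters' processing notes, and were used unchanged. RMA includes quantile normalization and no detection call, so a change of total RNA would not show. Precision is limited by having 3 arrays a group.

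The table holds 22810 probe sets, and 64 control probe sets were set apart. Of the other 22746, GEO's platform annotation gives 1 gene for 13513, several for 503 and none for 8730, which are unnamed here. Of the first, 13436 were matched to the NCBI RefSeq table of TAIR10.1, used for names and neighbours only. Groups were compared with limma 3.58.1 (lmFit, eBayes, prior degrees of freedom 5.35) in R 4.3.3, two-sided, with no covariate, Benjamini-Hochberg adjustment over all 22746 and a threshold of 0.05. Intervals are at 95%. The script was tested on simulated data with shifts larger than the differences of most genes described here. That test does not show whether differences as small as theirs would be called. A locus with several probe sets was represented by the brightest over all arrays. Permutation tests were exact (scipy 1.17.1).

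The members and lists were chosen with earlier results of these data known. Named are all 10 members, up to 4 genes with the smallest p of each further list, and the 5 probe sets most like HRA1. AT3G10030 was named for its position, and the 25S probe set after its values were seen. The alternatives were filters on dim probe sets (20% and 40%), 3 scalings, a trended robust prior, weights per array, the replicate number as a block, an unmoderated t statistic, the mean over a locus's probe sets, other thresholds and leaving out each array. Sequences were not used here.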

Additional observations from a re-analysis of the deposited data

How the results depend on the processing

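The count of the 10 genes past the threshold was 0 with all arrays, 7 with array weights (1 higher, 6 lower), 1 with the replicate number as a block and 2 at an adjusted p under 0.1 (AT5G47060 and AT1G19530, where 426 of all probe sets or 1.87% passed), and leaving out 1 array gave 0 to 3. It was 0 in the other alternatives, and the filter that drops the dimmest 40% of probe sets kept only 6 of the 10. That of the 19 other core hypoxia genes was 2, 6 with array weights and 3 with the replicate block. It was 0 with an unmoderated t statistic (4 had an unadjusted p under 0.05) and 0 to 3 leaving out 1 array. The 40% filter dropped both called genes, AT3G27220 and AT4G10270, so it did not test them again. Of the 7 it kept, 0 passed (2 at an unadjusted p under 0.05). Over all probe sets the count was 191, 2216 with array weights, 228 with the replicate block, 0 with an unmoderated t statistic (2472 had an unadjusted p under 0.05) and 5 to 489 leaving out 1 array.

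Single genes were on the same side of the threshold in 88 of 96 comparisons that leave out no array and in 57 of 60 that leave out 1, and the others (8 and 3) passed where they had not. None changed direction. The HRA1 difference ran from -0.31 to -0.14 and its adjusted p from 0.148 to 0.549. With the replicate block HRA1 had an adjusted p of 0.179, and AT1G19530, with 0.0231, was the 1 gene that passed. Arrays of the same number did not vary together (r of their deviations -0.06, -0.08 and -0.02, and 0 arrays of either group correlated best with their own number), and the labels do not say that a number marks a shared batch. The median of the 10 ran from -0.27 to -0.18. The mean was -0.37 and, without AT1G19530, an alternative added after seeing the data, -0.22. The wild-type order with replicate 1 lowest and 3 highest held for 5 genes under median centring and quantile normalization (added likewise) and for 6 under cyclic loess. What caused these shifts was not tested. Signals near the dap and lys range, as for AT1G19530 in 35S:PCO1, limit what can be seen of a larger difference.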
